A study of Drosophila montana with 12 samples.

Results

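The genes *thr*, *wash*, and *asun* act in cell division and egg formation, and their transcripts were followed in *Drosophila montana* females kept at different day lengths. The study paired contig_19929 with *thr*, contig_19416 with *wash*, and contig_27667 with *asun* in its supplementary tables, and every contig with the same blast hit was added. This gave 6 contigs of 31233 in all: contig_19929 and contig_28805 for *thr*, contig_19416 for *wash*, and contig_27667, contig_28049, and contig_28753 for *asun*. Contigs of a *de novo* transcriptome can be pieces of transcripts, so contigs of a shared hit may be parts of a single transcript, variants of it, or copies of the gene. The files do not hold contig lengths, so levels were compared between libraries and never between contigs. The study listed *wash* as differentially expressed between light cycles in diapausing females, and *thr* and *asun* in nondiapausing females, from these libraries. Values in those contrasts are therefore a description of how the contigs were chosen and not independent evidence. The contigs contig_28805, contig_28049, and contig_28753 were not listed. No listed contig was chosen on a contrast of diapause state, but those contrasts share libraries with the contrasts of light cycle.

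Each of the 12 libraries was made from 10 pooled whole females, frozen at 21 days of age after being kept from emergence under a fixed light-dark (LD) cycle. The 4 groups had 3 libraries apiece. Diapausing females were sampled at LD 16:8 and at the critical day length (CDL, with 5.5 h of dark), and nondiapausing females at the same CDL and at LD 22:2. The CDL is the day length at which a population splits between diapausing and reproducing females, and the labels and the methods give its hours of light differently. Diapause state was read from the ovaries at dissection, which held no yolk in females scored as diapausing, and intermediate females were left out. All 6 libraries at LD 16:8 and LD 22:2 came from isofemale line 175OJ8 (the descendants of a single wild female), whereas each CDL group held 1 library from 175OJ8, 1 from 265OJ8, and 1 from 3OL8. Line and light cycle are thus partly confounded, and values within line 175OJ8 are given where they matter. In fits within that line each CDL group is 1 library, assumed to vary like the libraries at LD 16:8 and LD 22:2, so their FDR is no replicate check at the CDL. Library totals ran from 2986505 to 6637623 counts, the smallest being that of nondiapausing 3OL8 females at the CDL. The yolk protein contigs *Yp2* and *Yp3* marked the sorted states: *Yp2* averaged 30.4 ± 7.25 (SD, n = 3) counts per 1000000 (CPM) in diapausing females at LD 16:8 and 86.9 ± 34.4 at the CDL, against 428 ± 34.9 in nondiapausing females at the CDL and 338 ± 70.2 at LD 22:2. In whole females with ovaries of different size, fewer cells of a type and less RNA per cell cannot be told apart.

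As background, *thr* encodes a part of the *Drosophila* separase, the protease that opens the cohesin ring so that sister chromatids can part at anaphase. *wash* encodes a protein of the Wiskott-Aldrich syndrome family, which switches on the Arp2/3 complex to build branched actin on endosomes and in the developing egg chamber of *D. melanogaster*. *asun* (asunder) encodes a subunit of the Integrator complex, which forms the 3' ends of small nuclear RNAs, and in *D. melanogaster* it is needed to place dynein at the nuclear envelope of spermatocytes and for normal oogenesis. In nondiapausing females the ovary holds dividing germ cells and follicle cells and growing egg chambers, and in diapausing females of *D. montana* egg chambers stop before yolk uptake.

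The listed *thr* contig, part of the separase that parts sister chromatids, was lowest in the CDL libraries of both states. For contig_19929, counts were 113, 100, and 103 in diapausing females at LD 16:8, or 24.6, 20.7, and 21.0 CPM after TMM scaling. In diapausing females at the CDL its counts were 54, 71, and 66 (10.98, 14.2, and 16.0 CPM for lines 175OJ8, 265OJ8, and 3OL8). In nondiapausing females its counts were 107, 97, and 59 at the CDL (15.9, 14.3, and 17.5 CPM, same order of lines) and 212, 155, and 213 at LD 22:2 (30.2, 26.9, and 29.5 CPM). All 6 CDL libraries thus lay at 10.98 to 17.5 CPM and all 6 libraries of the other light cycles at 20.7 to 30.2 CPM, with no overlap, a separation seen in 0.272% of all contigs. The study listed the contig on the nondiapausing part of this split, so that share is no measure of how unusual the contig is. Between the nondiapausing groups alone, the libraries did not overlap for 12.6% of all contigs. Group means were ordered LD 22:2 (28.9 ± 1.72 CPM, SD, n = 3), LD 16:8 (22.1 ± 2.14), nondiapausing CDL (15.9 ± 1.62), and diapausing CDL (13.7 ± 2.53). LD 22:2 and LD 16:8 did not pass the test against each other (FDR = 0.108), although their libraries did not overlap, and neither did the CDL groups of either state (FDR = 0.463).

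**Figure D1:**
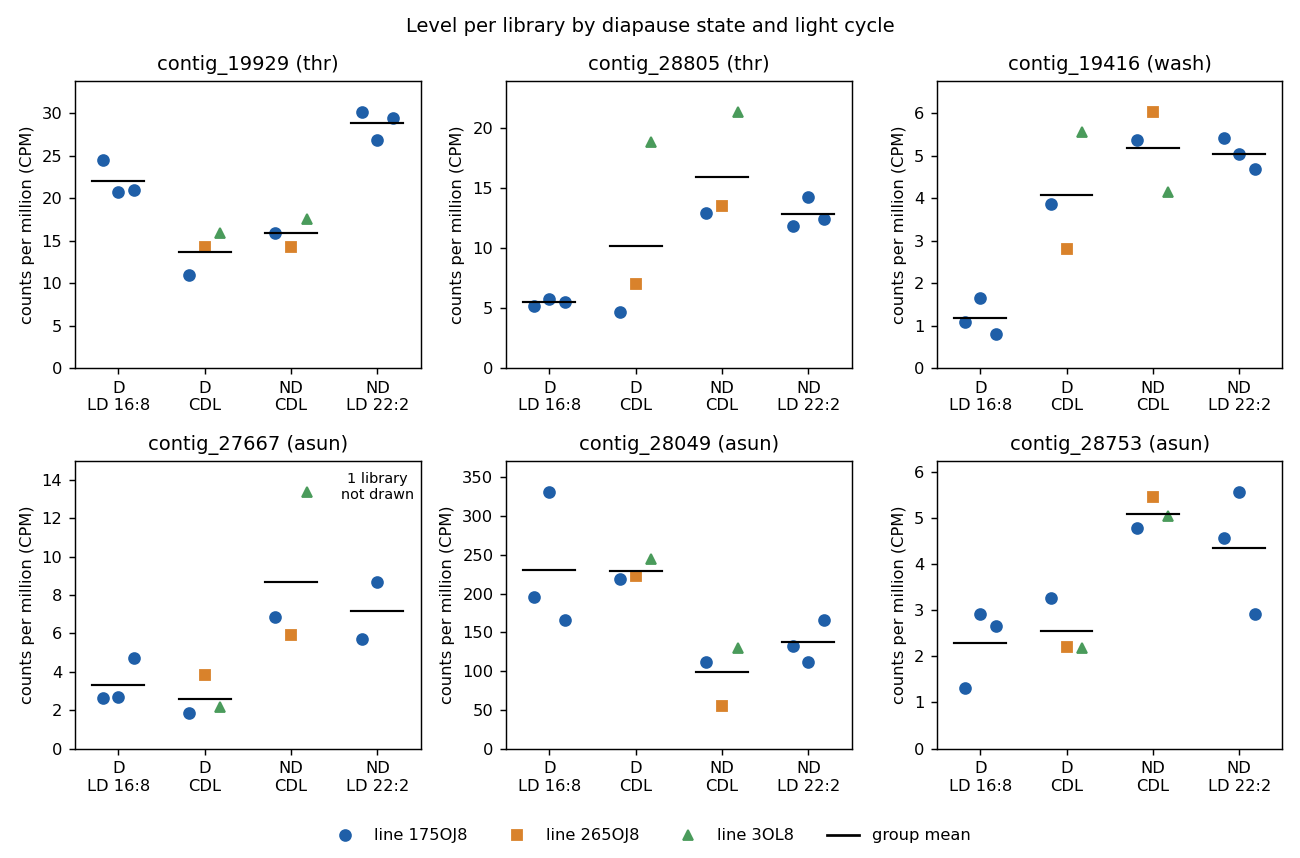
Level of the 6 contigs in each library, in CPM (vertical axis, from 0) by diapause state (D, diapausing; ND, nondiapausing) and light cycle; each point is 1 library of 10 pooled females, its shape and colour give the isofemale line, and lines mark group means. contig_19929 is low in all 6 CDL libraries (10.98 to 17.5 CPM), contig_19416 is lowest in the 3 libraries at LD 16:8 (0.816 to 1.66 CPM), and the library of contig_27667 at 2603 CPM is not drawn and not in its mean.

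In the contrasts of the study, contig_19929 was 0.69 (SE 0.223) higher on the log2 scale at LD 16:8 than at the CDL in diapausing females, which did not pass the edgeR likelihood ratio test at an FDR of 0.05 over all contigs (FDR = 0.182). In nondiapausing females it fell from LD 22:2 to the CDL (log2 difference -0.87, SE 0.211; 1.83-fold; FDR = 0.0220). The separase contig therefore passed in the contrast for which the study listed it. Of 24 alternatives, 15 kept this call and 9 lost it. It held with the isofemale line as a term (-0.99, FDR = 0.0329) and with DESeq2 (FDR = 0.0309). Within line 175OJ8 the difference was -0.86. The call was lost with edgeR's quasi-likelihood test (FDR = 0.331). It was also lost without any 1 of the 6 nondiapausing libraries, where the difference stayed between -0.93 and -0.77. The FDR was 0.139, 0.556, and 0.0749 without the CDL libraries of 175OJ8, 265OJ8, and 3OL8, and 0.299, 0.0704, and 0.194 without replicates 1, 2, and 3 of LD 22:2. The difference between both contrasts (the interaction of diapause state and light cycle) was 1.56 (SE 0.307, FDR = 3.70e-04), and it passed as well with the quasi-likelihood test (FDR = 0.0189) and without any single library (1.42 to 1.68, largest FDR = 0.00598). Its value within line 175OJ8 was 1.86. This interaction equals the levels at both outer light cycles minus those at the CDL, and the mean of contig_19929 was lower at the CDL in both states. The interaction includes the contrast on which the study chose the contig.

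The other *thr* contig did not share this pattern. contig_28805 had 24, 28, and 27 counts in diapausing females at LD 16:8 (5.22, 5.81, and 5.51 CPM) and 23, 35, and 78 at the CDL (4.68, 7.02, and 18.9 CPM). In nondiapausing females it had 87, 92, and 72 counts at the CDL (13.0, 13.5, and 21.4 CPM) and 83, 82, and 90 at LD 22:2 (11.8, 14.2, and 12.4 CPM). Both libraries of line 3OL8 were thus the highest of the 12, and the other diapausing libraries the lowest. contig_28805 was lower in diapausing females at LD 16:8 than in nondiapausing females at LD 22:2 (log2 difference -1.21, SE 0.384, FDR = 0.00464), where the libraries did not overlap, and diapause state and light cycle cannot be told apart in that comparison. At the CDL its difference between states was -0.65 (SE 0.369, FDR = 0.135). With the isofemale line as a term, which pairs the CDL libraries, the difference was -0.81 (FDR = 0.00600). Leaving out single libraries moved the difference without that term from -0.30 (FDR = 0.511, without the diapausing library of 175OJ8) to -1.41 (FDR = 5.39e-05, without the diapausing library of 3OL8), and it was -0.44 (FDR = 0.397) without the diapausing library of 265OJ8 and -0.40 (FDR = 0.426) without the nondiapausing library of 3OL8. Without both libraries of line 3OL8, a setting chosen after seeing the data, the difference was -1.18 (FDR = 6.62e-04). Within lines, the log2 ratio of diapausing over nondiapausing CPM was -1.47 in 175OJ8, -0.95 in 265OJ8, and -0.18 in 3OL8. Its contrasts of light cycle did not pass (FDR = 0.574 in diapausing females and near 1 in nondiapausing females), nor did its interaction (-1.17, SE 0.532, FDR = 0.408).

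The contigs of *thr* therefore took different shares of the counts of their hit in different groups. contig_28805 held 17.5, 21.9, and 20.8% of these counts in the 3 libraries at LD 16:8, and its widest 95% Wilson interval there ran from 15.6 to 29.8%. At the CDL it held 29.9, 33.0, and 54.2% in diapausing females and 44.8, 48.7, and 55.0% in nondiapausing females, and at LD 22:2 it held 28.1, 34.6, and 29.7%. Its share was lowest at LD 16:8, where the libraries did not overlap with those of any other group. With counts summed over both contigs, the *thr* hit gave an interaction of 0.65 (FDR = 0.519) and a nondiapausing contrast of -0.39 (FDR = 0.999), so neither call of contig_19929 held for the sum. The *thr* results are thus results for contig_19929 and not for all counts of its hit, and which contig is closer to the full transcript was not tested.

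**Figure D2:**
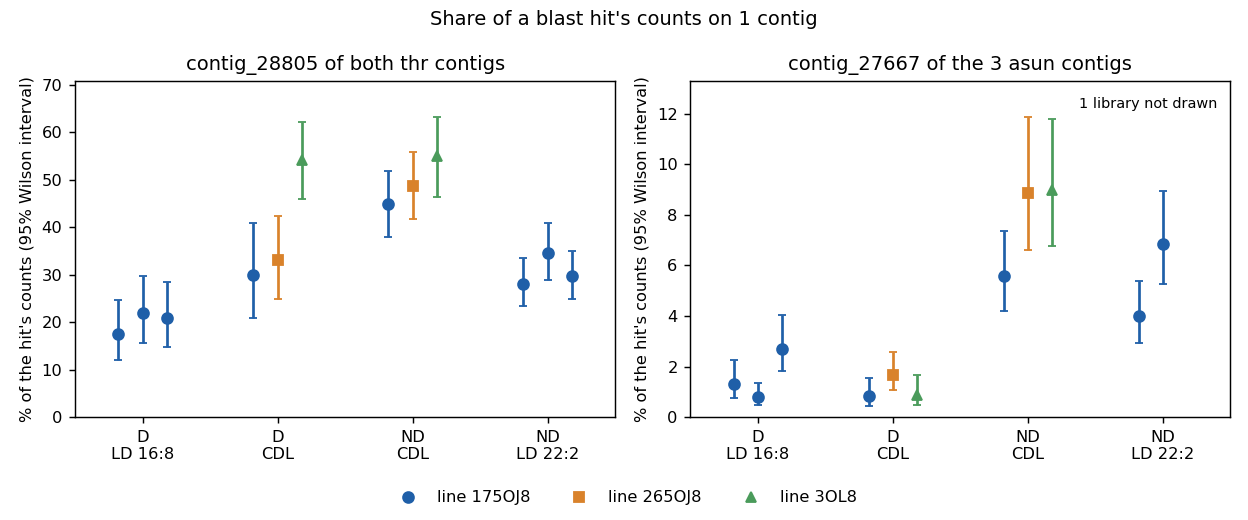
Share of the counts of a blast hit that fell on 1 contig, in percent with 95% Wilson intervals (vertical axis, from 0), by library; left, contig_28805 among both *thr* contigs, right, contig_27667 among the 3 *asun* contigs, with the library at 93.9% not drawn. contig_28805 holds 17.5 to 21.9% at LD 16:8 and more in every other library, and contig_27667 holds 0.801 to 2.71% in the 6 diapausing libraries and 3.98 to 8.98% in the 5 nondiapausing libraries drawn.

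The *wash* contig was lowest in the diapausing females at LD 16:8. contig_19416 had 5, 8, and 4 counts there (1.09, 1.66, and 0.816 CPM), against 19, 14, and 23 in diapausing females at the CDL (3.86, 2.81, and 5.56 CPM for 175OJ8, 265OJ8, and 3OL8). In nondiapausing females it had 36, 41, and 14 counts at the CDL (5.36, 6.04, and 4.16 CPM) and 38, 29, and 34 at LD 22:2 (5.41, 5.03, and 4.70 CPM). The 3 libraries at LD 16:8 lay below the other 9. The study listed the contig for being low in them, and the share of all contigs separated in this way was not counted. Their summed count was 17 (95% exact Poisson interval 9.90 to 27.2), against 56 (42.3 to 72.7) in diapausing females at the CDL, and intervals of counts cover counting error only. Group means were 5.18 ± 0.953 CPM (SD, n = 3) in nondiapausing females at the CDL, 5.05 ± 0.356 at LD 22:2, 4.08 ± 1.39 in diapausing females at the CDL, and 1.19 ± 0.431 at LD 16:8, and the first 3 groups in this order overlapped.

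Between light cycles in diapausing females, for which the study listed it, contig_19416 was lower at LD 16:8 (log2 difference -1.74, SE 0.445; 3.34-fold; FDR = 0.0112). The call was lost with the quasi-likelihood test (FDR = 0.153), with the isofemale line as a term (-1.71, FDR = 0.0544), and within line 175OJ8 (-1.68, FDR = 0.199). It was also lost without replicate 1 (FDR = 0.0922) or 3 (FDR = 0.0941) of LD 16:8 or without the diapausing CDL library of 3OL8 (FDR = 0.152), with values of -1.68, -1.53, and -1.47. In nondiapausing females the difference was 0.07 (SE 0.289, 95% interval -0.49 to 0.64, FDR near 1). The interaction was -1.81 (SE 0.531, FDR = 0.0393), which was lost with the quasi-likelihood test (FDR = 0.168), with the line as a term (FDR = 0.286), and within line 175OJ8 (FDR = 0.284). It was also lost (FDR between 0.0690 and 0.160) without 9 of the 12 libraries in turn, the exceptions being replicate 2 of LD 16:8, the diapausing CDL library of 265OJ8, and the nondiapausing CDL library of 3OL8.

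Between the ends of the design, diapausing at LD 16:8 and nondiapausing at LD 22:2, contig_19416 was lower in the former (log2 difference -2.07, SE 0.426; 4.19-fold; FDR = 8.30e-07). This call held with the quasi-likelihood test (FDR = 2.55e-04) and in all 25 alternatives run for it. State and light cycle cannot be told apart here. The libraries at LD 16:8 are also in the contrast for which the study listed contig_19416, so this call is not independent evidence. Both ends came from line 175OJ8. Between states at the CDL, contig_19416 did not pass (-0.40, SE 0.316, FDR = 0.285), and its log2 ratios of diapausing over nondiapausing CPM within lines were -0.47 (175OJ8), -1.10 (265OJ8), and 0.42 (3OL8). For *Yp2* and *Yp3*, the yolk proteins made in fat body and follicle cells, the 3 libraries at LD 16:8 were also below the other 9, and *Yp2* was lower there than at the CDL in diapausing females (log2 difference -1.52, SE 0.356, FDR = 0.0110; quasi-likelihood FDR = 0.0965). The study listed *Yp2* and *Yp3* for that contrast as well. *Yp2* was lower in diapausing than in nondiapausing females at the CDL as well (-2.30, SE 0.349, FDR = 6.11e-09). The 95% interval of contig_19416 in that comparison ran from -1.02 to 0.22, so a smaller difference of the same direction is not excluded. The part of yolk-forming tissue in the *wash* values was not tested.

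The listed *asun* contig held a single extreme library. contig_27667 had 18825 counts (2603 CPM) in replicate 3 of nondiapausing females at LD 22:2, against 9 to 50 in the other 11 libraries, and this was 195-fold the CPM of the next highest library. That library was left out for this contig. The same library was the highest for 14 of 124 contigs of the series in which 1 library was at least 5-fold over every other, and the 12 libraries had 3 to 16 such contigs each. *mxc*, a cell division gene considered below, was another of its 14. The other *asun* contigs did not share the peak: contig_28049 had 1202 and contig_28753 had 21 counts in that library.

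Without that library, the *asun* contig was lower in every diapausing than in every nondiapausing library. contig_27667 had 12, 13, and 23 counts in diapausing females at LD 16:8 (2.61, 2.70, and 4.69 CPM) and 9, 19, and 9 at the CDL (1.83, 3.81, and 2.18 CPM for 175OJ8, 265OJ8, and 3OL8). In nondiapausing females it had 46, 40, and 45 counts at the CDL (6.85, 5.89, and 13.4 CPM) and 40 and 50 at LD 22:2 (5.70 and 8.68 CPM). The 6 diapausing libraries (1.83 to 4.69 CPM) lay below all 5 nondiapausing libraries (5.70 to 13.4 CPM). The states were separate in this way, in either direction, for 39.5% of all contigs over these 11 libraries. Means were ordered nondiapausing CDL (8.70 ± 4.06 CPM, SD, n = 3), LD 22:2 (7.19 ± 2.11, n = 2), LD 16:8 (3.33 ± 1.18, n = 3), and diapausing CDL (2.60 ± 1.06, n = 3), and the groups of 1 state overlapped.

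At the CDL, contig_27667 was lower in diapausing than in nondiapausing females (log2 difference -1.68, SE 0.411; 3.21-fold; FDR = 1.72e-04 over 11 libraries; quasi-likelihood FDR = 0.00286). The study did not choose the contig on this contrast. The log2 ratio was -1.90 in line 175OJ8, -0.63 in 265OJ8, and -2.62 in 3OL8, so all 3 lines had the same direction. The call held without line 3OL8 (-1.21, FDR = 0.0196) and without any 1 of the 11 libraries (-2.07 to -1.30, largest FDR = 0.00419). With the extreme library in the fit, the value was -1.72 but the SE rose to 1.15 (FDR = 0.216). Between LD 16:8 diapausing and LD 22:2 nondiapausing females the difference was -1.04 (SE 0.432, FDR = 0.0336). That call was lost with the quasi-likelihood test (FDR = 0.0509) and without replicate 1 (FDR = 0.117) or 2 (FDR = 0.105) of LD 16:8 or replicate 2 of LD 22:2 (-0.72, FDR = 0.310).

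Between light cycles, contig_27667 did not pass in either state once that library was left out. The difference was 0.38 (SE 0.443, 95% interval -0.49 to 1.25, FDR = 0.963) in diapausing females and 0.26 (SE 0.399, 95% interval -0.52 to 1.04, FDR near 1) in nondiapausing females, and the interaction was 0.12 (SE 0.597, FDR = 0.983). With all 12 libraries, the nondiapausing contrast for which the study listed it was -6.65 (SE 1.13, FDR = 0.00493; quasi-likelihood FDR = 0.331), the interaction was 7.0 (SE 1.62, FDR = 0.0150; quasi-likelihood FDR = 0.237), and the comparison of LD 16:8 with LD 22:2 was -8.02 (SE 1.14, FDR = 1.36e-06). A single library thus set the direction, size, and call of the nondiapausing contrast.

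The remaining *asun* contigs differed between states as well, in opposite directions. contig_28049 had 898, 1596, and 813 counts at LD 16:8 (195, 331, and 166 CPM) and 1075, 1109, and 1013 in diapausing females at the CDL (219, 222, and 245 CPM). In nondiapausing females it had 748, 373, and 439 counts at the CDL (111, 54.9, and 130 CPM) and 932, 646, and 1202 at LD 22:2 (133, 112, and 166 CPM). It was higher in diapausing females at the CDL by 1.21 on the log2 scale (SE 0.371; 2.32-fold; FDR = 0.00403), with no overlap, and this call held without any single library (0.92 to 1.46, largest FDR = 0.0488) but not within line 175OJ8 (0.97, FDR = 0.226). Its log2 ratios within lines were 0.97, 2.02, and 0.91 for 175OJ8, 265OJ8, and 3OL8. Between LD 16:8 and LD 22:2 the difference was 0.75 (SE 0.370) and lay near the threshold, with FDR = 0.0807 in the likelihood ratio test, 0.0491 in the quasi-likelihood test, and 0.0492 with the isofemale line as a term. Its contrasts of light cycle were 0.01 (SE 0.370) in diapausing and -0.47 (SE 0.371) in nondiapausing females, and neither passed.

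contig_28753 had 6, 14, and 13 counts at LD 16:8 (1.30, 2.90, and 2.65 CPM), 16, 11, and 9 in diapausing females at the CDL (3.25, 2.21, and 2.18 CPM), 32, 37, and 17 in nondiapausing females at the CDL (4.77, 5.45, and 5.05 CPM), and 32, 32, and 21 at LD 22:2 (4.56, 5.55, and 2.90 CPM). It was lower in diapausing females at the CDL (log2 difference -0.99, SE 0.368, FDR = 0.0152; quasi-likelihood FDR = 0.0281) and lower at LD 16:8 than at LD 22:2 (-0.89, SE 0.373, FDR = 0.0313; quasi-likelihood FDR = 0.0452). Both calls rested on few counts, and each was lost in 5 of 24 alternatives, among them those given next. The CDL call was lost without the diapausing library of 265OJ8 (FDR = 0.0683) or of 3OL8 (FDR = 0.0590), without the nondiapausing library of 265OJ8 (FDR = 0.0550), and within line 175OJ8 (-0.55, FDR = 0.569). The other call was lost without replicate 1 of LD 16:8 (FDR = 0.187), the nondiapausing CDL library of 265OJ8 (FDR = 0.0512), or replicate 1 (FDR = 0.108) or 2 (FDR = 0.152) of LD 22:2. Its log2 ratios at the CDL were -0.55, -1.30, and -1.21 within 175OJ8, 265OJ8, and 3OL8.

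In counts, contig_28049 took most of the *asun* hit. Outside the extreme library, contig_27667 held 0.801 to 2.71% of the counts of the hit in the 6 diapausing libraries and 3.98 to 8.98% in the 5 nondiapausing ones, and it held 93.9% in the extreme library. contig_28049 held 95.8 to 98.3% in diapausing libraries and 82.9 to 92.8% in those 5 nondiapausing libraries. Summed over the 3 contigs, the *asun* hit was higher in diapausing females at the CDL (0.98, FDR = 0.0111), which is the reverse of contig_27667 and follows the contig with the most counts. A direction for *asun* as a gene therefore depends on the contig read.

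**Figure D3:**
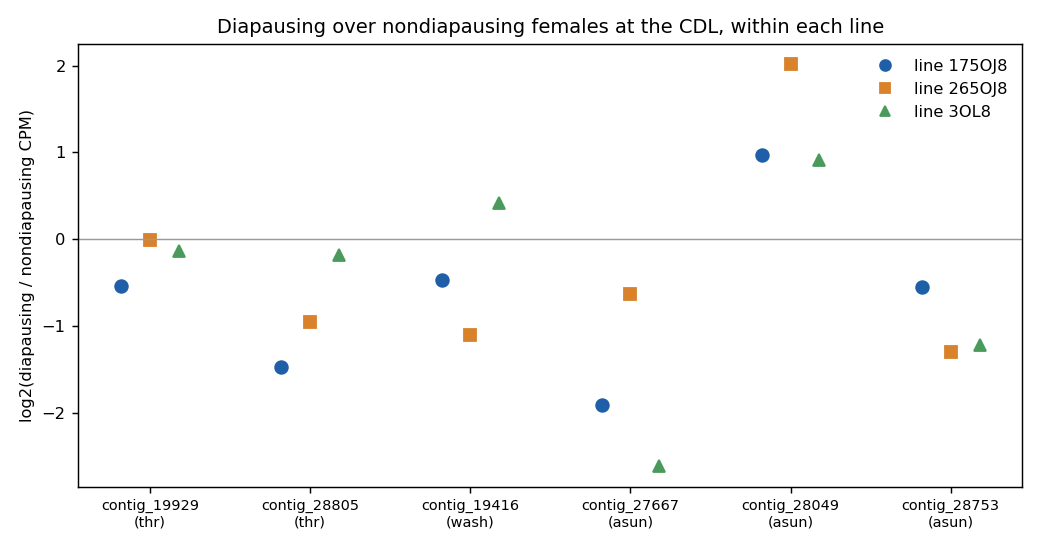
Log2 ratio of diapausing over nondiapausing CPM at the CDL for the 6 contigs, 1 point for each isofemale line (1 library against 1). contig_27667 (-2.62 to -0.63) and contig_28753 (-1.30 to -0.55) are below 0 and contig_28049 (0.91 to 2.02) is above 0 in all 3 lines, whereas contig_19416 has points on both sides.

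Counted over the 6 contigs, with contig_27667 from 11 libraries, 1 was called between light cycles in diapausing females (contig_19416), where 0.403% of all contigs were called in the fit of 12 libraries and 0.391% in that of 11. In nondiapausing females 1 of 6 was called (contig_19929), against 0.224 and 0.115% of all contigs. The interaction was called for 2 of 6 (contig_19929 and contig_19416), against 1.07 and 0.733%. Since the study listed contigs on these contrasts, nothing was read from these counts. With the quasi-likelihood test, 0 of 6 were called in diapausing females (3 of 6 had an unadjusted p under 0.05, against 7.75% of all contigs) and 0 of 6 in nondiapausing females (1 of 6 had one, against 5.48%), where 0.00640 and 0.00320% of all contigs were called, and 1 of 6 was called for the interaction (contig_19929), against 0.218%. The libraries of the groups did not overlap for 2 of 6 contigs between light cycles in diapausing females and for 1 of 6 in nondiapausing females, against 10.9 and 12.6% of all contigs.

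**Figure D4:**
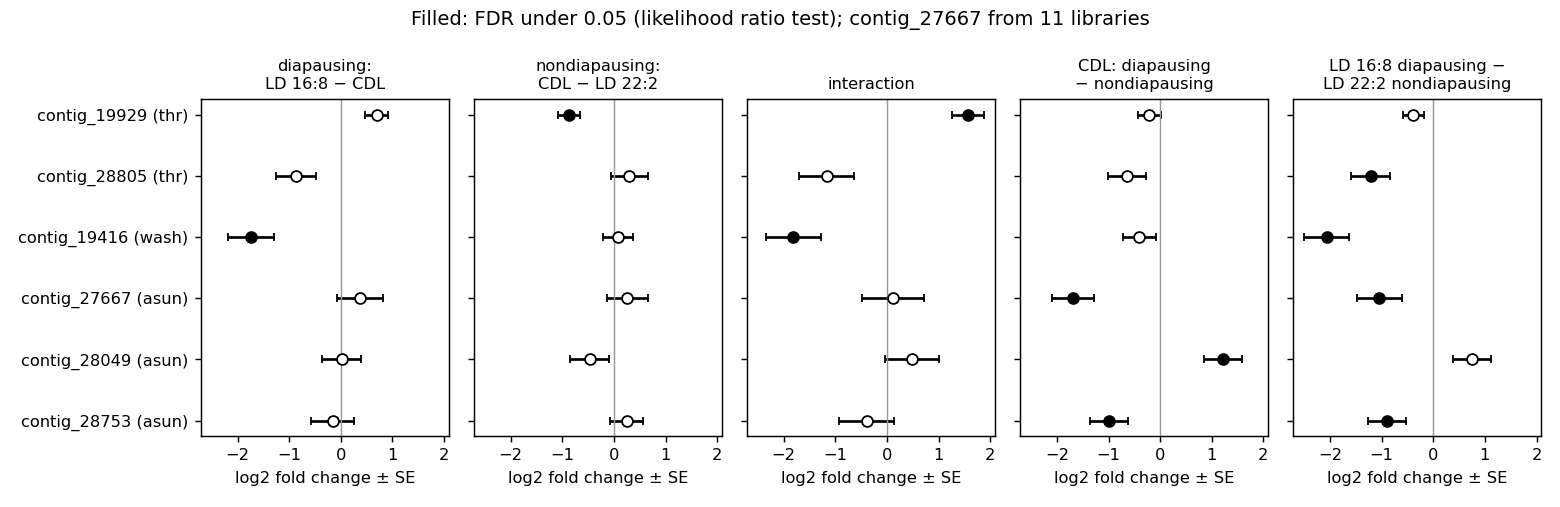
Log2 fold change with its standard error (bars) of the 6 contigs in the 5 comparisons, first group minus second; filled points have FDR under 0.05 by likelihood ratio over all contigs. contig_19929 (1.56) and contig_19416 (-1.81) pass for the interaction, and the 3 *asun* contigs pass at the CDL with contig_28049 (1.21) on the other side of 0 from contig_27667 (-1.68) and contig_28753 (-0.99).

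Between states at the CDL, 3 of 6 were called, 1 higher and 2 lower in diapausing females, against 49.5% of all contigs over 12 libraries and 48.6% over 11. The quasi-likelihood test called the same 3, against 48.4 and 47.5%, and the libraries did not overlap for 3 of 6, against 55.9%. These fits did not pair the CDL libraries by line. With the isofemale line as a term, contig_28805 was called at the CDL too (-0.81, FDR = 0.00600). The share of all contigs called with that term was not counted. Between LD 16:8 and LD 22:2, 4 of 6 were called, all lower at LD 16:8, against 49.6 and 45.7%. The quasi-likelihood test called 4 of 6 as well, with contig_28049 in place of contig_27667, against 48.6 and 44.6%, and the libraries did not overlap for 5 of 6, against 56.3%. The shares at the CDL without a line term lie near those of all contigs, so a call there does not set these genes apart. Between LD 16:8 and LD 22:2 the shares of the 6 were above those of all contigs. With only 6 contigs, some listed on contrasts that share these libraries, nothing was read from that. contig_27667 had 2 libraries at LD 22:2 in these counts, and its groups did not overlap with all 12 libraries either. The median log2 fold change of the 6 was -0.52 at the CDL and -0.97 between LD 16:8 and LD 22:2, against 0.08 and 0.04 over all contigs. Scaling by library size alone shifted the median of all contigs by -0.35 at the CDL and by -0.34 between LD 16:8 and LD 22:2. Of the calls, the share that was higher in diapausing females was 52.0% at the CDL and 50.01% between the ends with TMM factors, and 31.3 and 30.9% without them. The directions given above for called contigs held under both scalings.

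Other genes of these processes that the study listed from the same libraries are given for comparison, and their calls and p-values are not independent evidence. Of 4 cell division contigs (*toucan*, *MCPH1*, *mxc*, and *ifc*), 2 were higher at LD 16:8 than at the CDL in diapausing females (0.403% of all contigs were called there), and 1 was higher and 1 lower at the CDL than at LD 22:2 in nondiapausing females (0.224%). *ifc*, which was among those higher at LD 16:8, was also named by the study with its lipid metabolism genes. In all 4, 1 library was at least 5-fold over every other, as for contig_27667 and unlike contig_19929. *toucan*, a microtubule-associated protein, had 2774 CPM in replicate 2 of LD 16:8 (log2 difference 5.66, SE 1.01, FDR = 0.00368), and *mxc*, which organizes the histone locus body, had 953 CPM in replicate 3 of LD 22:2 (-4.44, SE 0.872, FDR = 0.00940). With the quasi-likelihood test 0 of 4 were called in either contrast, with an unadjusted p under 0.05 for 2 of 4 in diapausing and 2 of 4 in nondiapausing females, against 7.75 and 5.48% of all contigs.

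Of 8 contigs of oogenesis and gonad development, 6 were lower at LD 16:8 than at the CDL in diapausing females (*Yp2*, *Yp3*, *Abl*, *Gprk2*, *wek*, and *dpp*), as contig_19416 was, and 0 were higher, where 0.403% of all contigs were called. For *dpp*, a ligand of BMP signalling, the CDL library of 175OJ8 (13.2 CPM) lay within the 3 libraries at LD 16:8 (12.7 to 13.5 CPM), and the lines 265OJ8 and 3OL8 were at 204 and 244 CPM. For *Abl*, a tyrosine kinase, the CDL library of 3OL8 was at 49.3 CPM, against 4.68 and 6.62 CPM in 175OJ8 and 265OJ8 and 2.65 to 3.94 CPM at LD 16:8. *wek*, an adaptor of Toll signalling, averaged 1.39 ± 0.448 CPM (SD, n = 3) at LD 16:8, 4.45 ± 1.56 in diapausing females at the CDL, 5.24 ± 1.05 in nondiapausing females at the CDL, and 5.73 ± 1.08 at LD 22:2 (LD 16:8 minus CDL -1.66, SE 0.433, FDR = 0.0177). *Gprk2*, a kinase of G protein-coupled receptors that acts in Hedgehog signalling, was lower at LD 16:8 (-0.94, SE 0.215, FDR = 0.00607), and its interaction of -1.44 (SE 0.291, FDR = 6.36e-04) was called with the quasi-likelihood test as well (FDR = 0.0189). In nondiapausing females 2 of 8 were higher at the CDL (*fz2* and *wb*; 0.224% of all contigs were called), of which *wb* was another contig with a single high library. With the quasi-likelihood test 0 of 8 were called in either contrast, with an unadjusted p under 0.05 for 6 of 8 in diapausing and 5 of 8 in nondiapausing females, against 7.75 and 5.48% of all contigs. The study listed the 8 on these contrasts from the same libraries, so nothing was read from these shares. *Sym* (Symplekin), a scaffold of RNA 3' end cleavage, averaged 14.0 ± 4.04 and 38.6 ± 14.1 CPM in diapausing females (LD 16:8 and CDL) and 157 ± 6.67 and 114 ± 25.9 CPM in nondiapausing females (CDL and LD 22:2). It was lower in diapausing females at the CDL (-2.03, SE 0.323, FDR = 1.97e-08), the direction of contig_27667 and contig_28753 and not of contig_28049. In that comparison 49.5% of all contigs were called, and 52.0% of these calls were higher in diapausing females, so a shared direction says little.

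The contigs of other hits whose pattern was most like each listed contig were found by the correlation of log2 CPM across libraries among the 30474 contigs that averaged 1 CPM or more, as a description over libraries that share groups and depth. For contig_19929 these were contig_11133 (Pearson's r = 0.92 over 12 libraries), contig_15000 (0.88), and contig_21315 (0.88). Of 72 contigs that the study paired with a symbol, *YL-1* (0.77) and *MED28* (0.74) were the nearest, whereas contig_28805, of the same hit, had r = 0.12. contig_11133 repeated the low CDL levels, with means of 2.55 ± 0.403 and 2.97 ± 0.313 CPM at the CDL (diapausing and nondiapausing), 4.76 ± 0.402 at LD 16:8, and 5.05 ± 0.496 at LD 22:2. For contig_19416 the nearest were contig_17972 (0.95), contig_28042 (0.94), and contig_9253 (0.93), and of the paired contigs *wek* (0.86) and *Yp2* (0.84). Their rank correlations (Spearman's rho) were lower, at 0.81, 0.74, 0.64, 0.64, and 0.72 in the same order. The study listed *wek* and *Yp2* for the same contrast as contig_19416. contig_9253 averaged 2.52 ± 0.642 CPM at LD 16:8 and 6.61 ± 0.446, 9.93 ± 1.29, and 8.75 ± 2.15 CPM in diapausing CDL, nondiapausing CDL, and LD 22:2 females. For contig_27667, over 11 libraries, the nearest were contig_28768 (0.96), contig_10347 (0.96), and contig_3403 (0.95), and of the paired contigs *mxc* (0.83) and *plexB* (0.77). *plexB* had 5157 CPM in the nondiapausing CDL library of 3OL8 and at most 34.0 CPM in any other library. Its rank correlation with contig_27667 was 0.85, and that of *mxc* was 0.73. The hit partners of contig_27667 had r = -0.68 (contig_28049) and 0.73 (contig_28753). contig_28768 averaged 2.09 ± 0.354 and 1.48 ± 0.829 CPM in diapausing females (LD 16:8 and CDL) and 8.30 ± 3.25 and 6.49 ± 1.86 CPM in nondiapausing females (CDL and LD 22:2).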

How the data were processed

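The authors sequenced poly(A) RNA as paired SOLiD reads, trimmed and error-corrected them, and mapped them with CLC software to a *de novo* transcriptome, from which contigs with a nonarthropod hit had been discarded. Per the labels and the methods, they deposited raw counts of reads mapping uniquely to each contig, made with HTSeq, 1 file for each library, with a blast hit for each contig. Strand was not stated, and reads shared by similar contigs were not counted, so contigs of a shared hit are uncertain. All 31233 contigs were tested without a filter. Fits used R 4.3.3 with edgeR 4.0.16 (TMM factors, trended and tagwise Cox-Reid dispersions, prior count 0.125, likelihood ratio tests of 4 groups, Benjamini-Hochberg FDR under 0.05 over all contigs). contig_27667 was fitted on 11 libraries. CPM values used TMM factors from 12 libraries. Log2 CPM for correlations used a prior count of 2. Alternatives were edgeR's quasi-likelihood test, DESeq2 1.42.0, other factors, filters, dispersions, and prior counts, leaving out each library, line terms, and sums over a hit. Leaving out line 3OL8 was chosen after seeing the data. The steps were tested on simulated data. The named genes were the 6 contigs, 13 contigs of cell division, oogenesis, and RNA 3' ends that the study paired with symbols (a further contig of these lists is not reported here), and for each listed contig the 3 most correlated contigs of other hits and the 2 most correlated of those with symbols. Members and lists were chosen with earlier results of these data known. The CDL libraries pair by line, since deviations from group means of same-line libraries correlated at 0.20 (175OJ8), 0.14 (265OJ8), and 0.30 (3OL8). Replicate numbers at LD 16:8 and LD 22:2 did not pair libraries (-0.02, -0.11, and 0.06 for numbers 1, 2, and 3). The highest correlation of log2 CPM between any 2 libraries was 0.96. Pools at LD 16:8 and LD 22:2 came from 1 line and are not stated to come from separate cultures, so p-values measure only the spread between these libraries, which may be technical. Of 15263 genes in a RefSeq table of *D. montana* (ASM3504440v1), all 3 symbols were present, but 0 blast hits matched by accession, so no sequences or positions are given.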

Additional observations from a re-analysis of the deposited data

Results flagged for a closer look

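For contig_19929 (*thr*), the test of the difference between the contrast in diapausing females (LD 16:8 minus CDL) and that in nondiapausing females (CDL minus LD 22:2) gave 1.56 on the log2 scale (SE 0.307, FDR = 3.70e-04). The contrasts span different light cycles, and the contig was lower at the CDL than at the other light cycle in both states (13.7 against 22.1 CPM and 15.9 against 28.9 CPM), so the value does not show a response that depends on diapause state. For contig_19416 (*wash*), the same test gave -1.81 (SE 0.531, FDR = 0.0393), and the call was lost in 13 of 22 alternatives, among them the quasi-likelihood test (FDR = 0.168). Both values include the contrast for which the study listed the contig. For contig_27667 (*asun*), the library left out of its comparisons, replicate 3 of nondiapausing females at LD 22:2, held 18825 counts, against 9 to 50 in the other 11 libraries.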

How the results depend on the processing

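Of 700 values over 30 results and their alternatives, 611 kept direction and side of the threshold, 47 lost a call, 16 gained one, and 26 changed sign, and 11 DESeq2 results had no adjusted p. Log2 values follow, and the cause was not tested. With the quasi-likelihood test, contig_19929 in nondiapausing females (-0.87), contig_19416 in diapausing females (-1.74) and for the interaction (-1.81), and contig_27667 between LD 16:8 and LD 22:2 (-1.04) lost their calls. That test called 2 contigs of all in diapausing females, 1 in nondiapausing females, and 68 for the interaction, against 126, 70, and 334 with the likelihood ratio test. DESeq2 called 110, 29, and 302 in the same order. With library size alone, contig_19929 (-0.56), contig_19416 (-0.75), and contig_28805 (-0.998) gained a call between states at the CDL, as did contig_19929 between LD 16:8 and LD 22:2 (-0.72), and contig_28049 in diapausing females turned to -0.023. With the 6 libraries of diapausing females alone, contig_19416 lost its call (-1.71).

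With a replicate block (the isofemale line as a term), contig_19416 lost its calls in diapausing females (-1.71) and for the interaction (-1.78). Values that had not passed changed sign for contig_28805 in nondiapausing females (-0.22) and for the interaction (0.038), for contig_27667 in nondiapausing females (-0.10), and for contig_28049 in diapausing females (-0.092). contig_28805 gained a call at the CDL (-0.81, or -0.82 with the replicate label as the term), and contig_28049 gained one between LD 16:8 and LD 22:2 (0.75). The paired fit changed no other call of these 6 contigs.

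Within line 175OJ8, calls were lost for contig_19929 in nondiapausing females (-0.86) and for contig_19416 in diapausing females (-1.68) and for the interaction (-1.77), and signs changed for contig_28805 in diapausing females (0.24) and for the interaction (0.22) and for contig_27667 in nondiapausing females (-0.0046). Without line 3OL8, contig_19416 lost the same calls (-1.47 and -1.65) and contig_27667 turned to -0.12 in nondiapausing females. In that setting contig_28805 gained a call between states at the CDL (-1.18). Summed over a hit, contig_19929 lost its calls in nondiapausing females (-0.39) and for the interaction (0.65) and gained one between LD 16:8 and LD 22:2 (-0.62). contig_27667 turned to -0.26 in nondiapausing females, to 0.98 at the CDL, and to 0.78 between LD 16:8 and LD 22:2. With all 12 libraries, contig_27667 was at -6.65 in nondiapausing females, 7.0 for the interaction, and -1.72 at the CDL.

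Without each library in turn, contig_19929 ran from -0.93 to -0.77 in nondiapausing females, and contig_19416 from -2.06 to -1.47 in diapausing females, -0.018 to 0.17 in nondiapausing females, and -2.13 to -1.55 for the interaction. contig_27667 ran from -0.12 to 0.59 in nondiapausing females, -0.21 to 0.50 for the interaction, and -1.37 to -0.72 between LD 16:8 and LD 22:2. In diapausing females contig_28049 ran from -0.34 to 0.20 and contig_28753 from -0.36 to 0.12. Counts of 4 to 50 in most libraries limit the precision for contig_19416, contig_27667, and contig_28753.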
